A study of Mus musculus with 20 samples.

Results

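The genes examined here encode the proteins of the cytoplasmic ribosome, and they were taken by their symbols: every probe set of the array annotated with 1 gene symbol that is Rpl or Rps followed by a number and at most a letter and a further digit. This rule used no measured value and found 207 probe sets of 28767, which carried 57 symbols: 127 probe sets of 35 Rpl genes of the large subunit and 80 probe sets of 22 Rps genes of the small subunit. Signals were measured in the amygdala of male mice, 7 months old and on a C57BL/6 background (C57BL/6J in the methods), with 1 mouse per array and 20 arrays in all. KO mice lacked the serotonin transporter gene in all cells (5-HTT, Slc6a4) and WT mice carried it, and both came from heterozygous parents. The stress condition was 1 min in water of 22 °C by the labels (slightly cooler in the methods), and the con condition was 1 min in the home cage. By the methods, the tissue was lysed within minutes of the start of either condition, so the values describe this early time alone. The 4 groups of 5 mice were KO stress (5-HTT knockout, swim), KO con (5-HTT knockout, home cage), WT stress (wild-type, swim) and WT con (wild-type, home cage). Every mouse of every group was kept singly and had earlier been tested on the elevated plus-maze, so no group was free of handling.

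A ribosome is built from a small subunit, which holds the mRNA and reads its codons, and a large subunit, which joins the amino acids and passes the chain out through a tunnel. The proteins of both are made in matched amounts, and many of their mRNAs begin with a run of pyrimidines right at the 5′ end, the 5′ TOP element, through which the TOR kinase controls their translation. Ribosomal protein genes have also been copied many times into the genome as processed pseudogenes, which have sequence close to that of the mRNA and usually lie on other chromosomes.

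The stretch around the annotated start is shown for 6 of the genes that the results turn on, as 10 bases before the start and 20 bases from it, 5′ to 3′ on the gene's own strand (RefSeq, build GRCm38.p6). Capitals mark the first run of 6 or more C or T that begins with C and starts within 10 bases of the annotated start.
Rps6, chr4:86857348-86857377, minus strand: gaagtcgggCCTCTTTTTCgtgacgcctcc
Rpl38, chr11:114668570-114668599, plus strand: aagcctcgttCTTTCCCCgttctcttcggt
Rpl27a, chr7:109519185-109519214, plus strand: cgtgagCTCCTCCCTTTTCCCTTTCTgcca
Rpl32l, chr10:20208429-20208458, plus strand: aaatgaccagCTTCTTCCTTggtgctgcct
Rpl26, chr11:68901556-68901585, plus strand: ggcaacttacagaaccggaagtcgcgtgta
Rpl19, first start, chr11:98026700-98026729, plus strand: aaacgccctcactgcgcatgtgcgccgcgg
Rpl19, second start, chr11:98026914-98026943, plus strand: tctccccttcgcagataatgggcggagcct
The first 4 hold such a run, and the windows of Rpl26 and Rpl19 do not. The second Rpl19 window opens with pyrimidines, but this stretch begins further before the start than the rule allows. The search read the gene's own strand alone, and no other motif was searched. Promoters were at hand for 46 of the 57 genes, and 19 of these (41.3%) held a run in at least 1 promoter, against 5508 of 27025 genes of the mouse (20.4%) and 15 of 69 mitochondrial ribosomal protein genes (21.7%). A run is a description of letters, and its absence says only that these letters are not in this window.

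Of the 57 symbols, 56 are coding genes in the RefSeq annotation, and a further 17 coding genes whose symbols fit the rule occurred only in probe sets that name several genes. Rpl11, which with Rpl5 carries the 5S ribosomal RNA, and Rpl3 were among the 17. A further 235 probe sets named a ribosomal protein gene beside other symbols and lie outside the rule. Among the symbols, 21 had 1 probe set and 36 had several, up to 14 for Rps12 and 13 for Rpl23a. The sources used here did not give the positions of the probe sets, so the probe set on a gene's own locus could not be told from those on its copies, and all were kept apart by their number. No 2 probe sets of a gene had the same values in every array, but some came close: after each was centred on its own mean, the 3 probe sets of Rpl41 differed by a median of 0.000839 at most, while those of Rps9 differed by up to 0.55. Probe sets of 1 gene can thus share much of their signal and are not separate measurements of it.

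The values are log2 signals. The median member had a mean of 9.73 over the 20 arrays, against 6.72 for the median of all probe sets. The highest means were those of 3 probe sets of Rpl21, a large subunit protein, with 12.32 for probe set 10440467. The lowest means were 4.53 for Rpl39l, 5.31 for Rpl3l and 5.45 for Rpl10l, which are paralogues known from testis (Rpl10l, Rpl39l) and striated muscle (Rpl3l). Signals of different probe sets depend on their probes as well as on RNA, so no order of transcript amounts was read from them. Within a gene the probe sets lay farthest apart for Rps21 (9.04 and 6.46), Rps15 (10.31, 8.96 and 8.02) and Rpl23 (10.36 and 8.10). The residual SD within groups had a median of 0.165 over the 103 members with means between 9.01 and 10.53, against 0.220 over the 3263 other probe sets at these levels.

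The probe set of Slc6a4 was read as a check of the labels. It read 8.10, 8.38, 8.28, 8.35 and 8.27 in KO stress, 8.17, 8.20, 8.14, 8.17 and 8.11 in KO con, 6.55, 6.32, 6.30, 6.44 and 6.35 in WT stress, and 6.73, 5.82, 6.20, 6.52 and 7.82 in WT con. All 10 KO arrays were above all 10 WT arrays, by 1.71 ± 0.16 (SE) on the log2 scale averaged over conditions (limma, adjusted p = 0.000115), which is opposite to a loss of transcript. The sources used here do not give where its probes lie relative to the deleted stretch, so the probe set separated the genotypes without checking the loss, and the arrays are named as labelled. The WT con array 5 was the WT array closest to the KO arrays. Markers of other cell types also differed between the groups. Compared with KO con, KO stress had all 10 choroid plexus probe sets higher (median difference 1.05), with list means of 6.94 to 9.46 in KO stress, 6.49 to 7.18 in KO con, 6.47 to 10.2 in WT stress and 6.68 to 7.61 in WT con. The pallial excitatory neuron list ran from 7.85 to 9.33 in WT stress and from 7.77 to 8.27 in WT con, with 10 of 11 probe sets higher in WT stress (median difference 0.48). No marker of these lists had a mean under 5, and the part of tissue makeup in the results below was not tested. In tissue RNA, fewer cells of a type and less RNA per cell cannot be told apart.

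The plot of centred gene means by array shows how the 57 genes varied among the mice.

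**Figure D1:**
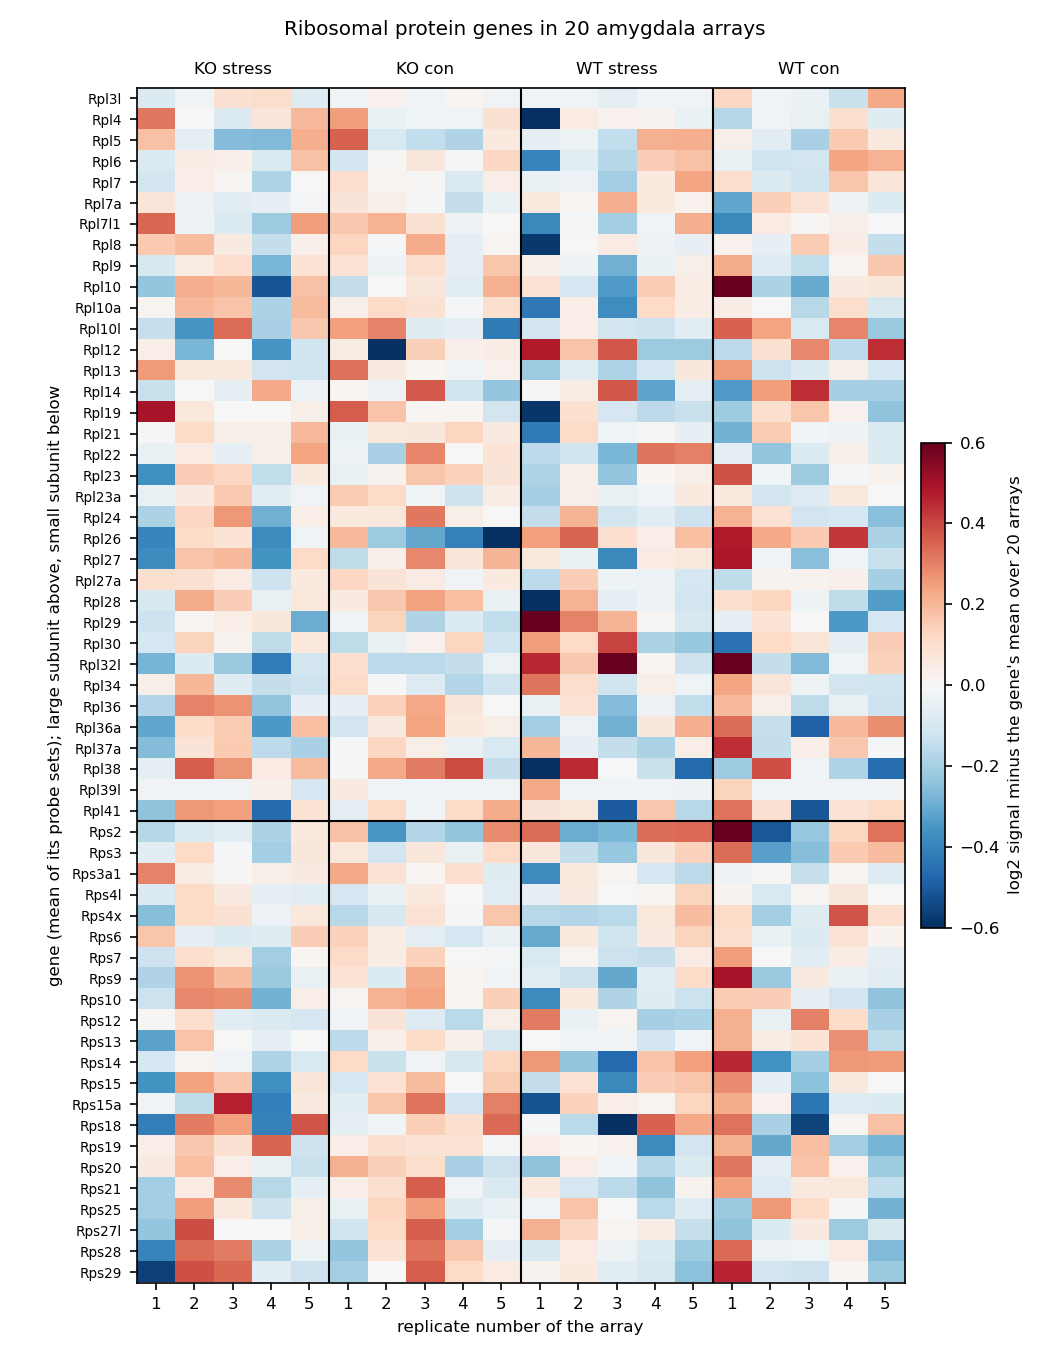
Centred log2 signal (mean over the probe sets of a gene, minus its mean over 20 arrays) of 57 ribosomal protein genes (rows, large subunit above) in each array (columns, KO stress, KO con, WT stress, WT con). Most genes lay under their own mean in KO stress 4 (11 of 57 above it) and over it in KO stress 2 (44 of 57), and the lowest value was that of Rpl38 in WT stress 1 (−0.94) and the highest that of Rpl32l in WT stress 3 (0.67), both beyond the ends of the colour scale at −0.6 and 0.6.

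The members' mean level differed from mouse to mouse within each group. The mean deviation of the 207 members was −0.08, 0.13, 0.09, −0.15 and 0.05 in the KO stress arrays, 0.04, 0.05, 0.09, −0.01 and 0.04 in KO con, −0.12, 0.03, −0.14, −0.01 and −0.01 in WT stress, and 0.13, −0.03, −0.07, 0.04 and −0.07 in WT con. The groups overlapped, with means of 0.01 ± 0.12 in KO stress, 0.04 ± 0.04 in KO con, −0.05 ± 0.07 in WT stress and 0.00 ± 0.09 in WT con (SD, n = 5 each). WT stress 1 stood apart over all probe sets, with a median correlation with the other arrays of 0.961, against 0.978 to 0.990 for the other 19. Within KO stress, array 2 had 177 of 207 members above their own mean and array 4 had 23. A set of 6 arrays (KO stress 5, KO con 5, WT stress 4 and 5, WT con 4 and 5) had a lower signal of the brightest probe set, at most 13.82 against at least 13.97 in the others. The labels name no batch, but these 6 arrays are the last samples in the listed order of the series. They were separated from the other 14 by 103 probe sets, counting the brightest one, which set the split. Among the 103 were 2 members, both of Rpl6 (0.26 and 0.24 higher in the 6). Some genes departed from the rest within an array: WT stress 1 had Rpl38 at −0.94 and Rpl29 at 0.60, and WT con 1 had Rpl32l at 0.64 and Rpl30 at −0.44.

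**Figure D2:**
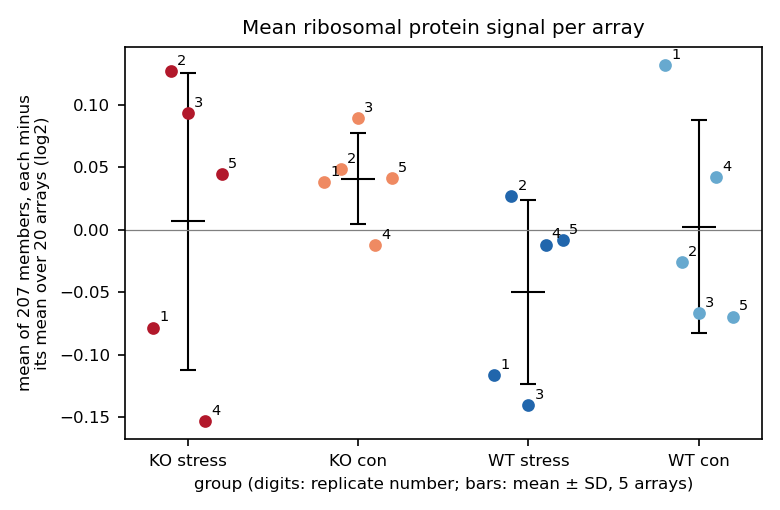
Mean deviation (log2) of the 207 member probe sets from their own means in each of 20 arrays (points), with group mean and SD (bars), for KO stress, KO con, WT stress and WT con. The points run from −0.15 (KO stress 4) to 0.13 (KO stress 2 and WT con 1), and all 4 groups overlap.

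The first question of the design was whether the genotypes differed without stress. In con KO vs. WT no member passed an adjusted p under 0.05 or the criterion of the study (a fold over 1.5 with unadjusted p under 0.05), which 0 and 0.0487% of all probe sets passed. At unadjusted p under 0.05, 1 member was higher in KO con (background 1.9% of all probe sets) and 1 was lower (background 1.67%). Across the list, 136 of 207 members had higher means in KO con, with a median difference of 0.05, against 0.00 over all probe sets. For the large subunit this was 99 of 127 (median 0.06), and for the small subunit 37 of 80 (median −0.00). Of the 36 genes with several probe sets, 17 had every probe set higher in KO con and 7 had every probe set lower, whereas of the 21 genes with 1 probe set 10 were higher. After quantile normalization the median became −0.02, with 85 of 207 higher, so the direction of the list was not kept under this scaling. Leaving out any 1 array kept the median between 0.02 and 0.08. The cause of the change was not tested.

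The member that was lower was Rpl26, a protein at the rim of the tunnel exit (chromosome 11, 68901566 to 68904534, GRCm38.p6). Its 1 probe set read 7.32, 7.83, 7.80, 7.34 and 7.69 in KO stress, 7.91, 7.50, 7.41, 7.31 and 7.04 in KO con, 7.97, 8.07, 7.82, 7.76 and 7.90 in WT stress, and 8.20, 7.94, 7.87, 8.14 and 7.53 in WT con. Every KO con array except the first was lower than every WT con array, and array 5 of WT con was the lowest of the WT arrays. The difference in con KO vs. WT was −0.50 ± 0.15 (SE), with p = 0.00368 and an adjusted p of 0.929 by limma, and the exact permutation test, two-sided, gave p = 0.0317. In stress KO vs. WT it was −0.31 (limma p = 0.0574, adjusted 0.53; exact permutation p = 0.0397), and over both conditions −0.40 ± 0.11 (limma, adjusted p = 0.412). Leaving out any 1 array kept the con difference between −0.62 and −0.40, with unadjusted p under 0.05 each time.

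Another 3 probe sets were annotated with Rpl26 and Gm15772 together. They lie outside the rule and were chosen after their values were seen, because they ran the other way. Their mean was 8.31, 8.48, 8.24, 8.03 and 8.36 in KO stress, 8.46, 8.48, 8.60, 8.25 and 8.40 in KO con, 7.59, 8.08, 7.82, 8.20 and 7.89 in WT stress, and 7.81, 7.99, 7.67, 7.99 and 8.07 in WT con. All KO con arrays were above all WT con arrays, which held for 0.445% of all single probe sets. Of the stress arrays only KO stress 4 and WT stress 2 and 4 overlapped with the other genotype. In con KO vs. WT the differences were 0.62 ± 0.12, 0.40 ± 0.10 and 0.58 ± 0.12 (SE). Each had the smallest p that an exact permutation test, two-sided, can give with 5 against 5 arrays, 0.00794, while the adjusted p by limma was 0.599, 0.929 and 0.599. The 3 probe sets carry the same symbols and can share signal, so they are not 3 separate measurements. In stress KO vs. WT they were 0.43, 0.25 and 0.43 higher in KO (adjusted p = 0.53 each by limma). Probe set 10466923 reached the criterion of the study in con KO vs. WT. The study itself lists this probe set as higher in unstressed KO mice. It places it in a ribosome pathway of 3 predicted genes or pseudogenes. Within an array, the Rpl26 probe set minus this mean ran from −0.99 to −0.44 in KO stress, from −1.35 to −0.55 in KO con, from −0.44 to 0.37 in WT stress and from −0.54 to 0.39 in WT con. Which transcript each probe set reads was not tested.

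The member that was higher was a probe set of Rpl27a (10357369), a large subunit protein. It read 9.68, 9.81, 9.71, 9.49 and 9.65 in KO stress, 9.65, 9.74, 9.65, 9.63 and 9.64 in KO con, 9.29, 9.79, 9.53, 9.51 and 9.42 in WT stress, and 9.31, 9.62, 9.56, 9.40 and 9.31 in WT con. The con groups did not overlap, although the lowest KO con array and the highest WT con array lay 0.01 apart. Probe sets whose con groups did not overlap with KO con higher made up 0.445% of the array. The difference was 0.22 ± 0.08 (SE), with an adjusted p of 0.929 by limma and 0.00794 by the exact permutation test. All 9 probe sets of Rpl27a were higher in KO con and in KO stress than in the WT group of the same condition, and for the third smallest p, probe set 10491062, the con difference was 0.13 (limma p = 0.0752; exact permutation p = 0.0476).

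The second comparison, stress KO vs. WT, held 12 members at unadjusted p under 0.05: 10 were higher in KO stress (background 3.05%) and 2 were lower (background 6.23%), or 5.80% against 9.28% of all probe sets. None passed an adjusted p under 0.05 (background 0.00348%, the probe set of Slc6a4 alone) or the criterion of the study (background 0.768%), and the smallest adjusted p of a member was 0.53 by limma. In all, 156 of 207 members were higher in KO stress, with a median of 0.05, against −0.03 over all probe sets. This held 99 of 127 large subunit probe sets and 57 of 80 small subunit probe sets, 19 genes with every probe set higher and 7 with every probe set lower. Con and stress comparisons of the genotypes share no arrays.

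**Figure D3:**
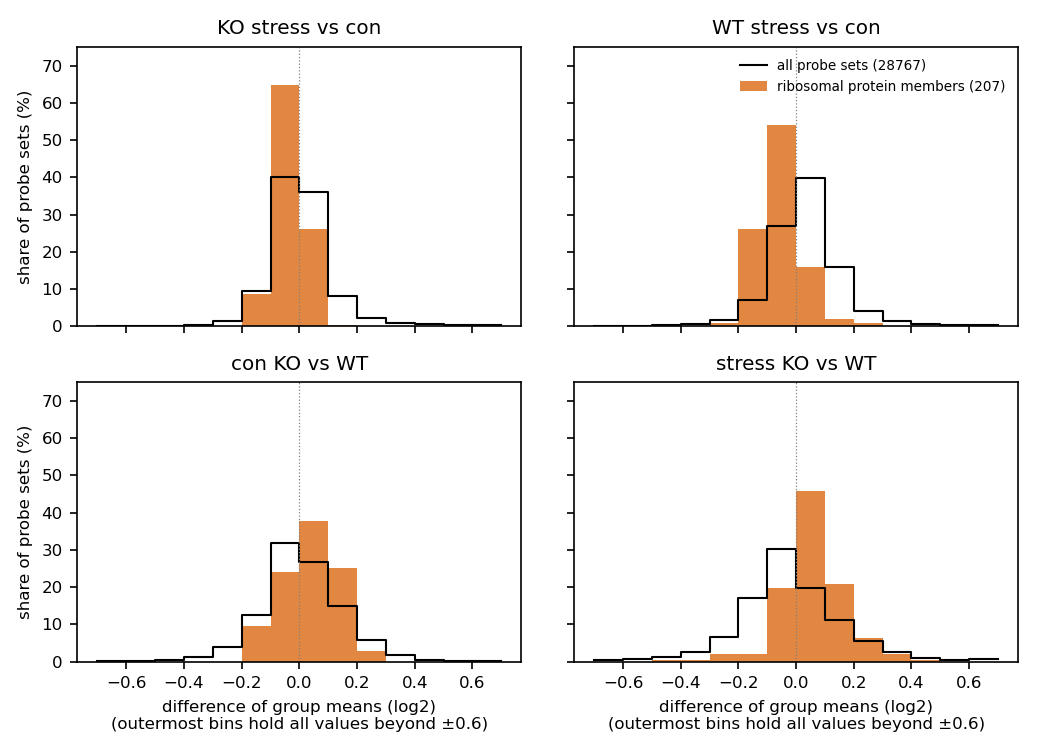
Share of the 207 members (bars) and of all 28767 probe sets (line), in percent, by log2 difference in bins of 0.1, in 1 panel for each of the 4 comparisons. The members' medians were −0.03 in KO stress vs. con, −0.06 in WT stress vs. con and 0.05 in both comparisons of KO with WT.

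Of the 10 higher members 7 were the 7 probe sets of Rpl19, another protein of the tunnel exit rim. Their mean was 11.19, 10.76, 10.69, 10.70 and 10.73 in KO stress, 11.06, 10.87, 10.71, 10.71 and 10.59 in KO con, 10.11, 10.79, 10.60, 10.54 and 10.56 in WT stress, and 10.48, 10.79, 10.87, 10.72 and 10.45 in WT con. KO stress 1 was the highest of all arrays and WT stress 1 the lowest, and the other 8 stress arrays lay between 10.54 and 10.79. The differences in stress KO vs. WT ran from 0.26 to 0.37 with SEs of 0.12 to 0.14 (limma, unadjusted p = 0.0127 to 0.0478; exact permutation p = 0.0317 to 0.0873), and in con KO vs. WT from 0.09 to 0.14 (limma, unadjusted p = 0.293 to 0.484). Without KO stress 1 only 1 of the 7 stayed under 0.05 (differences of 0.17 to 0.29), and without WT stress 1 likewise 1 of 7 (0.16 to 0.25). The remaining higher members were a probe set of Rps3a1 (10407120) and 2 of Rpl10a. Rps3a1, a small subunit protein, read 8.75, 8.50, 8.46, 8.49 and 8.50 in KO stress, 8.68, 8.54, 8.46, 8.55 and 8.38 in KO con, 8.07, 8.51, 8.46, 8.34 and 8.29 in WT stress, and 8.42, 8.46, 8.31, 8.47 and 8.37 in WT con. The stress groups overlapped, with a difference of 0.20 (limma p = 0.0196, exact permutation p = 0.0714), which became 0.15 without KO stress 1 (p = 0.07) and 0.13 without WT stress 1 (p = 0.067). The 4 probe sets of Rpl10a, of the L1 stalk at which the used tRNA leaves, were 0.16 to 0.22 higher in KO stress. Those at unadjusted p under 0.05 were 10355173 (limma p = 0.0473; exact permutation p = 0.175) and 10407535 (limma p = 0.0341; exact permutation p = 0.151). The first was above 0.05 in 14 of the 20 fits that left out 1 array (0.14 without WT stress 1), and the second in 5 (0.14 without WT stress 3). The 10 higher members became 1 without WT stress 1, 5 without KO stress 1, 6 without KO stress 2, 17 without KO stress 4 and 28 without WT stress 2, and the methods' t-test left 1 of them. Shares over all probe sets are not given for these fits, so a change of the whole array cannot be told apart.

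The 2 lower members were Rpl32l and a probe set of Rpl29. Rpl32l, annotated as an Rpl32 relative, read 6.53, 6.72, 6.58, 6.38 and 6.69 in KO stress, 6.90, 6.64, 6.64, 6.66 and 6.77 in KO con, 7.25, 6.96, 7.47, 6.81 and 6.68 in WT stress, and 7.45, 6.66, 6.54, 6.78 and 6.94 in WT con. KO stress was low and even, while WT arrays spread over almost 1 log2 unit and overlapped it. The stress difference was −0.46 ± 0.16 (SE; limma p = 0.00872, adjusted p = 0.53; exact permutation p = 0.0238). Rpl29, which encodes a small protein of the large subunit, is described with the stress comparisons.

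Over both conditions, 24 members were higher in KO at unadjusted p under 0.05 (11.6% of members, background 4.71%) and 3 were lower (1.45%, background 7.34%). With both directions pooled this was 13% of members against 12% of all probe sets, and the smallest adjusted p was 0.412 by limma. The average is built from the arrays of both genotype comparisons and adds no measurement to them, and probe sets of 1 gene can share signal. The 24 comprised 6 of 7 probe sets of Rpl19, 5 of 9 of Rpl21, 3 of 9 of Rpl27a, 3 of 5 of Rpl28, 3 of 4 of Rpl38, 2 of 4 of Rpl10a, and 1 each of Rps10 and Rps3a1. The 3 lower ones belonged to Rpl26, Rpl32l and Rpl7a. The 4 probe sets of Rpl38, a small protein of the large subunit, were higher by 0.20 to 0.28 in con KO vs. WT and by 0.35 to 0.42 in stress KO vs. WT, which became 0.18 to 0.24 in stress without WT stress 1 and 0.11 to 0.19 in con without WT con 5. Its mean over 4 probe sets was 10.69, 11.11, 11.01, 10.80 and 10.94 in KO stress, 10.74, 10.98, 11.06, 11.14 and 10.60 in KO con, 9.81, 11.20, 10.75, 10.61 and 10.28 in WT stress, and 10.53, 11.14, 10.72, 10.56 and 10.29 in WT con. Groups overlapped, with the lowest arrays in WT. Rpl21 had all 9 probe sets higher in KO, by 0.04 to 0.19 in con and 0.05 to 0.20 in stress, and in neither comparison did any reach an unadjusted p under 0.05. Without WT con 1 the con differences ran from −0.05 to 0.12, and without WT stress 1 the stress differences ran from −0.01 to 0.10. The 24 became 8 without WT stress 1 or without WT con 5, 11 without KO con 2, 13 without KO stress 2, 14 without KO con 1 and 15 without KO stress 5. Here too, shares over all probe sets are not given for these fits.

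Slc6a4 lies on chromosome 11, and 6 of the genes with 31 probe sets have their locus there: Rpl23a at 1.15 Mb from it, Rpl26 at 8.09 Mb, then Rpl23, Rpl19, Rpl27 and, at 37.6 Mb, Rpl38. Of the 31 probe sets, 30 were higher in con KO vs. WT and 27 in stress KO vs. WT, 7 of these, all of Rpl19, at unadjusted p under 0.05. Rpl23a, the nearest, had 13 probe sets with differences of 0.01 to 0.07 in con and −0.03 to 0.09 in stress. Of the 444 probe sets of genes within 10 Mb of Slc6a4, 20 reached an unadjusted p under 0.05 in con KO vs. WT (background 3.57% of all probe sets) and 37 in stress KO vs. WT (background 9.28%).

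Stress within a genotype was the other question of the design. In KO stress vs. con no member reached an unadjusted p under 0.05 in either direction (background 0.827% higher and 0.306% lower), none passed the criterion of the study (background 0.139%), and the smallest adjusted p of a member was 1 by limma. Of the 207 members, 55 were higher in KO stress, with a median of −0.03, against −0.00 over all probe sets, and without KO stress 4 the median was 0.01 with 120 higher. The smallest p was that of a probe set of Rps7 (10399760), a small subunit protein. It read 9.90, 10.13, 10.11, 9.79 and 10.07 in KO stress, 10.18, 10.13, 10.19, 10.07 and 10.06 in KO con, 9.90, 10.06, 9.88, 9.91 and 10.07 in WT stress, and 10.25, 10.04, 9.96, 10.08 and 9.96 in WT con. The difference was −0.13 (limma p = 0.0988; exact permutation p = 0.135), set by KO stress 1 and 4, while the other 3 lay within the range of KO con. A further Rps7 probe set (10607391) and 1 of Rpl23 (10390502) followed, at −0.10 and −0.14 (limma p = 0.162 each; exact permutation p = 0.143 and 0.175).

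In WT stress vs. con 2 members were higher at unadjusted p under 0.05 (background 2.99%) and 1 was lower (background 0.556%), none passed the criterion of the study (background 0.24%), and the smallest adjusted p of a member was 1 by limma. Only 39 of 207 members were higher in WT stress, with a median of −0.06, whereas the median of all probe sets was 0.03. Of the 36 genes with several probe sets, 25 had all of them lower in WT stress and 2 had all higher, and in KO stress vs. con these counts were 21 and 2. Of the 21 genes with 1 probe set, 10 were higher in each genotype. Without WT con 1 and WT stress 1 together, the median was 0.01 and 110 members were higher.

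Averaged over both genotypes, 25 of 207 members were higher under stress, with a median of −0.05, against 0.01 over all probe sets, and 28 of the 36 genes with several probe sets had all of them lower and 0 had all higher. This average is built from the arrays of both stress comparisons and adds no measurement to them. At unadjusted p under 0.05 it held 1 higher member, Rpl7a 10453632 (background 1.44%), and 1 lower, Rps7 10399760 (background 0.229%), while none passed the criterion of the study (background 0.0556%) or an adjusted p under 0.05 by limma. With array weights the median was −0.00 and 93 members were higher.

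The higher ones were probe sets of Rpl29 and Rpl7a. Rpl29 10429949 read 8.42, 8.56, 8.59, 8.61 and 8.25 in KO stress, 8.52, 8.68, 8.37, 8.46 and 8.40 in KO con, 9.15, 8.84, 8.75, 8.55 and 8.45 in WT stress, and 8.50, 8.63, 8.55, 8.20 and 8.44 in WT con. WT stress 1, 2 and 3 were above all other arrays, and WT stress 4 and 5 were not. The difference was 0.29 ± 0.11 (SE) in WT stress vs. con (limma p = 0.0224; exact permutation p = 0.0714) and −0.26 in stress KO vs. WT (limma p = 0.033; exact permutation p = 0.111), and without WT stress 1 the first was 0.19 with p = 0.0825. Without WT con 4 the first was 0.22, with its unadjusted p above 0.05, and that of the second was above 0.05 without KO stress 1, KO stress 5, WT stress 1 or WT stress 2 (−0.25 to −0.16). A further 35 probe sets named Rpl29 beside other symbols and were looked at after their values were seen. All 35 were higher in WT stress than in WT con, by 0.14 to 0.27, and none was higher in KO stress than in KO con. In con KO vs. WT all 35 were higher in KO (0.11 to 0.27), and in stress KO vs. WT 2 of 35 were. Without KO stress 1 these counts in KO stress vs. con and stress KO vs. WT were 11 and 30 of 35, and without WT con 3 the WT stress vs. con differences ran from 0.04 to 0.24 and those of con KO vs. WT from 0.06 to 0.21. These comparisons share arrays pairwise, and the 35 probe sets share sequence.

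Rpl7a, a large subunit protein, read 7.48, 7.56, 7.60, 7.49 and 7.47 in KO stress, 7.51, 7.57, 7.51, 7.44 and 7.30 in KO con, 7.39, 7.60, 7.74, 7.57 and 7.39 in WT stress, and 6.81, 7.65, 7.41, 7.26 and 7.18 in WT con for probe set 10453632. WT con 1 was the lowest of all arrays. The WT stress vs. con difference of 0.28 (limma p = 0.0228; exact permutation p = 0.111) became 0.16 without it (p = 0.084) and 0.23 without WT stress 3 (p = 0.0662). Rps21, a small protein of the small subunit, was the lower member, with 8.88, 9.25, 9.32, 8.93 and 8.91 in KO stress, 9.03, 9.10, 9.20, 9.02 and 9.02 in KO con, 9.05, 8.98, 8.88, 8.63 and 8.85 in WT stress, and 9.45, 8.96, 9.26, 9.26 and 8.84 in WT con for probe set 10479362. WT groups overlapped at 8.84 to 9.05, and the difference was −0.28 (limma p = 0.0267; exact permutation p = 0.0952), or −0.20 without WT con 1 (p = 0.0901). Leaving out WT con 3, WT con 4 or WT stress 4 also took its p above 0.05, with differences of −0.25, −0.25 and −0.21. When replicate number entered the fit of the WT groups as a block, since their same-numbered arrays deviated together, Rps21 no longer passed either (limma, unadjusted p = 0.0506; the exact permutation test above is without the block).

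**Figure D4:**
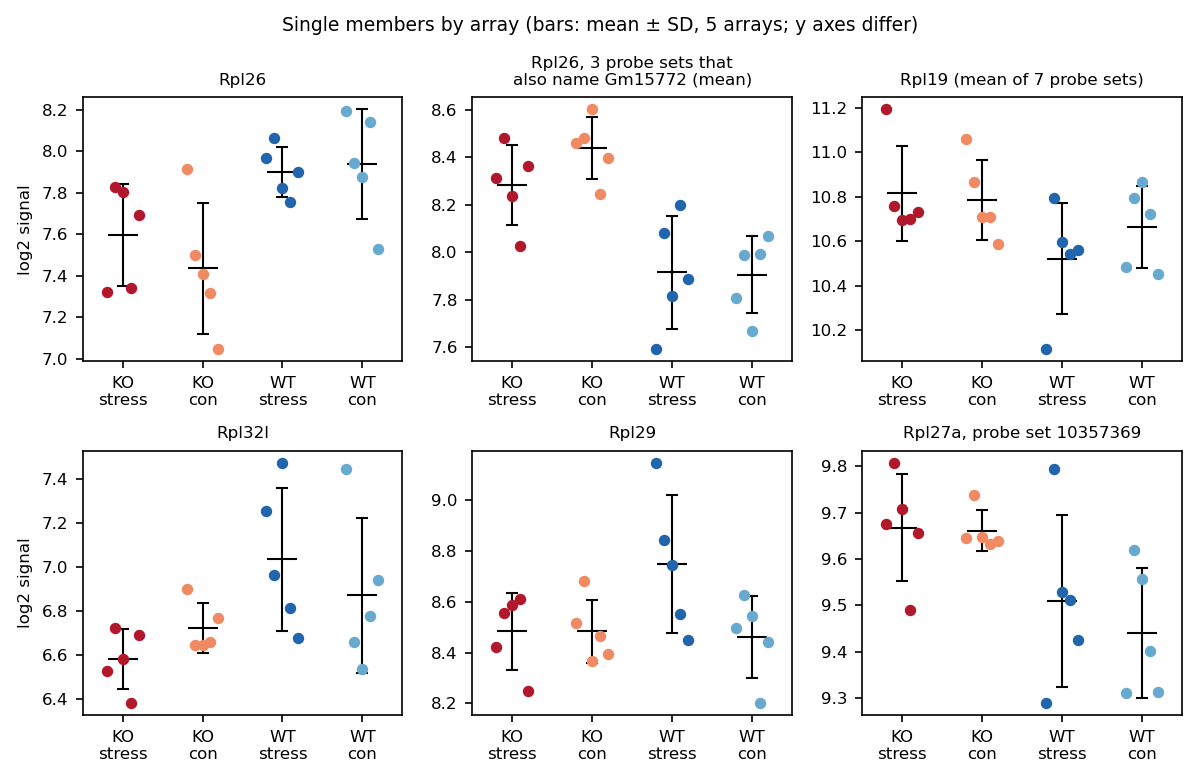
Log2 signal of Rpl26, of the 3 probe sets that name Rpl26 with Gm15772 (mean), of Rpl19 (mean of 7), Rpl32l, Rpl29 and Rpl27a in each array (points) with group mean and SD, for KO stress, KO con, WT stress and WT con. Rpl26 averaged 7.44 in KO con and 7.94 in WT con while the probe sets with both symbols ran the other way, and Rpl19 stands apart in KO stress 1 (11.19) and WT stress 1 (10.11).

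No member responded differently to stress in the genotypes at unadjusted p under 0.05 (interaction term, limma; background 2.52%), and the median interaction was 0.01 with 121 of 207 members above 0, against −0.03 over all probe sets. Rps6, the small subunit protein that S6 kinases phosphorylate downstream of TOR, gave an example with 8 probe sets. All 8 were higher in KO stress than in KO con, by 0.01 to 0.04, and all 8 were lower in WT stress than in WT con, with differences of −0.12 to −0.03. Its mean ran from 10.83 to 11.08 in KO stress, from 10.81 to 11.05 in KO con, from 10.61 to 11.05 in WT stress and from 10.83 to 11.02 in WT con, so the groups overlapped throughout. Without KO stress 1, 1 of the 8 was higher in KO stress vs. con, and without WT stress 1, 6 of the 8 were higher in WT stress vs. con. The differences of the 5 probe sets of Rpl5 ran from −0.093 to 0.058 over the 4 comparisons. All 5 were lower in KO stress than in KO con and in WT stress, and all 5 were higher in WT stress than in WT con. None of the 5 probe sets of the paralogues Rpl3l, Rpl10l, Rpl39l, Rpl7l1 and Rps27l reached an unadjusted p under 0.05.

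Other parts of the translation machinery were read for the same comparisons, from lists that do not use these symbols. Of 85 probe sets of mitochondrial ribosomal proteins, 72 were higher in con KO vs. WT (median 0.15) and 69 in stress KO vs. WT (median 0.09). At unadjusted p under 0.05, 9 were higher and 1 lower in con, and 5 higher and 0 lower in stress (background 1.9% higher and 1.67% lower in con, 3.05% and 6.23% in stress), among them Mrpl18 (0.21 in con) and Mrps15 (0.41 in stress), with Mrps16 lower (−0.40 in con). Translation initiation factors had 35 of 42 probe sets higher in con KO vs. WT and 34 of 42 in stress KO vs. WT (median 0.10 each), and none reached an unadjusted p under 0.05 in either. Of 59 ribosome biogenesis probe sets, 45 and 34 were higher in con and stress, and Nolc1, a nucleolar protein, was 0.34 higher in stress KO vs. WT. Among 17 probe sets of S6 kinases and TOR signalling, Rps6ka3 was 0.48 higher in con KO vs. WT and the difference of Rps6kl1 in stress KO vs. WT was −0.20. The single genes named so far from these lists were chosen by a small p within their list, so they do not stand for it. Ribosomal proteins whose symbols the rule leaves out, such as Rpsa and Fau, had 9 of 12 and 8 of 12 probe sets higher in KO. No probe set of these lists passed an adjusted p under 0.05 in these comparisons, the smallest being 0.929 in con and 0.53 in stress by limma.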

How the data were processed

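Amygdalae of the left and right side were dissected from each mouse, and total RNA was hybridised to Affymetrix Mouse Gene 1.0 ST arrays, 1 mouse per array. The authors summarised the scanner files to 1 log2 value per probe set with the ExonRMA algorithm of ArrayAssist, and these deposited values were used without further scaling. The base of the log was taken from their range (4.09 to 14.24), and tool versions were not given in the sources used here. No per-sample column was left unassigned. Array medians ran from 6.59 to 6.82, and 5 arrays per group limit the precision.

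Symbols came from the platform annotation: 21776 probe sets carried 1 symbol, 1618 several and 5373 none. Gene positions and promoters came from RefSeq (GRCm38.p6). A linear model with 1 mean per group was fitted to all 28767 probe sets in limma 3.58.1 (R 4.3.3), with moderated tests and Benjamini-Hochberg adjustment over all of them; "p" without a further word is unadjusted and two-sided. Single differences of 5 against 5 arrays were also tested by exact permutation over 252 splits. The comparisons were the 2 stress comparisons, the 2 genotype comparisons, their interaction, the genotype averaged over conditions and the stress averaged over genotypes. The script was tested on simulated data. Figures were drawn with Python 3.11.15 and matplotlib 3.10.9.

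The members and gene lists were chosen with earlier results of these data known. Probe sets were named where they passed an adjusted p under 0.05 or the criterion of the study, had 1 of the 3 smallest p in a comparison, the 3 highest or 3 lowest signals, belonged to a paralogue, to Rpl26, Rpl21, Rps6 or Rpl5, lay on chromosome 11, or belonged to the 3 genes whose probe sets lay farthest apart; a few further ones follow their gene's count. From the pathway lists at most 3 probe sets each were named by p. The replicate numbers of the labels pair samples by no stated source. Over all probe sets, deviations from the group means of same-numbered arrays correlated above 0.1 in all 5 pairs of the WT groups alone (0.16 to 0.42), and 3 of these 5 arrays correlated best with their own number. For KO con and WT con the 5 correlations ran from 0.06 to 0.33, and 3 of 5 arrays likewise correlated best with their own number.

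Alternatives were the t-test of the methods, moderated tests with trend and robust settings, each pair of groups alone, quantile normalization, median centring, a minimum mean of 5, probe sets with 1 symbol, array weights, a replicate block, each array left out, 1 probe set per symbol and no paralogues. Chosen after seeing the data were the 6 arrays of lower top signal as a covariate, alone or left out, WT con 1 and WT stress 1 left out together, and the probe sets with several symbols added.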

Additional observations from a re-analysis of the deposited data

Results flagged for a closer look

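Among 148 groups of 5 values (the gene means, the probe sets of smallest p and the means over several-symbol probe sets, in 4 groups each), 14 held an array that stood far from the other 4. Chance alone gives about 1 in 20 groups for normally distributed values, and several of these values share arrays or probe sets. Rpl39l and Rpl3l also repeat 1 value in many arrays (4.51 and 5.29), so an array off that value is easily flagged. The 14 of 148 can thus not be set against 1 in 20.

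Rpl19 read 11.2 in KO stress 1 for the mean of its 7 probe sets, against 10.7 to 10.8 in the other KO stress arrays, and 11.3 for probe set 10556571. In the same array Rps3a1 read 8.75, against 8.46 to 8.50 in the others. The stress KO vs. WT values of both genes rest in part on this array.

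In KO stress 4, Rpl27a was low, with 10.4 for the mean of 9 probe sets (others 10.6) and 10.5 for probe set 10491062 (others 10.7). Its probe set 10357369 was high in KO con 2, with 9.74 against 9.63 to 9.65. WT stress 3 was low for Rpl27 (8.10, others 8.44 to 8.55) and Rpl3l (5.25, others 5.28 to 5.29) and high for Rpl7a (8.31, others 8.10 to 8.15). WT con 1 read 7.95 for Rpl7l1, against 8.34 to 8.39. The 35 several-symbol probe sets of Rpl29 averaged 9.74 in KO con 5, against 9.60 to 9.63.

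Rpl39l, the dimmest member, stood high in 1 array of 3 groups: 4.58 in KO con 1, 4.76 in WT stress 1 and 4.66 in WT con 1, while the others of these groups lay at 4.51 or just below.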

How the results depend on the processing

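No member passed an adjusted p under 0.05 in any comparison under any alternative. The count of members at the criterion of the study was 0 in all comparisons and stayed 0 except as follows. In con KO vs. WT it was 1 with the several-symbol probe sets added, and 0 to 1 when 1 array was left out (1 without KO con 1 and without WT con 5). In stress KO vs. WT it was 1 in the 14 arrays of higher top signal alone, 1 with the several-symbol probe sets added, and 0 to 1 when 1 array was left out (1 without WT stress 2). The medians of the members moved by less than the SD of their mean between arrays, but 4 crossed 0: con KO vs. WT (−0.02 after quantile normalization), KO stress vs. con (0.01 without KO stress 4), WT stress vs. con (0.01 without WT con 1 and WT stress 1, and 0.01 in the 6 arrays of lower top signal alone) and the interaction (−0.02 without WT con 1). The cause was not tested.

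Members at unadjusted p under 0.05 varied more. The shares of all probe sets under each alternative are not given here, so these counts cannot tell a change of the members from one of the whole array. In con KO vs. WT 10 were higher with array weights, against 1. In stress KO vs. WT array weights left 0 higher. With the genotype averaged, quantile normalization gave 12 higher and 4 lower, and the 6 arrays as a covariate 14 higher, against 24 and 3. A replicate block in all groups gave 16 higher in stress KO vs. WT, 5 in con KO vs. WT and 27 with the genotype averaged. A replicate block in the 2 WT groups alone kept 2 higher and left 0 lower against 1, as Rps21 was then just above 0.05. These were the only 2 groups whose same-numbered arrays all correlated above 0.1. The results followed for single probe sets were all under 0.05 in the fit to all arrays. They included the 3 several-symbol probe sets of Rpl26. Over the alternatives, 1059 of these results kept their side of 0.05 and 314 passed above it, and none turned its direction. In a comparison of 2 groups, leaving out an array of another group left the difference unchanged, so these counts do not measure stability. In the 6 arrays alone, 1 KO con array stood against 2 WT con arrays and was assumed to vary like the other groups. The con KO vs. WT difference there was −0.79 for Rpl26 and 0.43, 0.24 and 0.44 for its 3 several-symbol probe sets, with the signs of the fit to all arrays. Rpl27a 10357369 in con KO vs. WT passed above 0.05 in the 14 arrays alone (0.17), also without a change of sign. Probe sets near background, such as Rpl39l, and those that share sequence with copies of their gene are the least certain.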

Other observations

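Some genes that had no single values above are described here. Rpl28, a large subunit protein, had 5 probe sets that were 0.17 to 0.19 higher in con KO vs. WT, with a mean over them of 10.76 to 11.08 in KO stress, 10.82 to 11.10 in KO con, 10.25 to 11.06 in WT stress and 10.52 to 10.98 in WT con. In stress KO vs. WT the 5 were 0.15 to 0.21 higher, and 0.03 to 0.09 higher without WT stress 1. The lowest array was WT stress 1, as for Rpl19 and Rpl38. The 6 probe sets of Rpl10, a late-joining protein of the large subunit encoded on the X chromosome, differed by −0.05 to −0.02 in con KO vs. WT and by −0.01 to 0.01 in stress KO vs. WT. The 13 probe sets of the 3 genes on the X chromosome had a median difference of −0.08 in WT stress vs. con, with all 13 lower in WT stress, and of −0.04 in KO stress vs. con, with 10 of 13 lower in KO stress. Most members of the whole list were lower there too, with medians of −0.06 and −0.03, and probe sets of 1 gene can share signal.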
